A study of Mus musculus with 16 samples.

Results

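The 9 genes described here carry vitamin A through its storage, oxidation and signalling: Rbp4, Stra6, Lrat, Rdh10, Aldh1a1, Aldh1a2, Crabp1, Rara and Rarb. They were chosen by symbol, from earlier results of these data, as the members of the retinoid pathway to be followed across the 4 groups, and are 9 of the 12393 genes with a probe set of their own on the array. Each was read by 1 probe set that carries no other gene's symbol, so no member has a second probe set to set beside the first. Because the 4 groups entered that choice, the members' differences between exposures and genotypes are given as a description, with no test. Sex did not enter it and was tested.

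The study measured gene expression in the left lung of 16 mice, 1 Affymetrix array per mouse. The groups were adiponectin-deficient mice exposed to 0.3 ppm ozone for 72 h, adiponectin-deficient mice in room air, C57BL/6 wildtype mice exposed to the same ozone, and C57BL/6 wildtype mice in room air. Each held 4 mice of 14 weeks mean age, with 2 males (M1 and M2) and 2 females (F1 and F2). Adiponectin is a hormone of fat cells, ozone is an oxidant pollutant of the air, and the question was how the lack of the hormone alters the lung's response to several days of ozone. The sources used here do not say which part of the Adipoq gene was removed. Values are log2 intensities, a scale on which 1 unit is a doubling, and levels of different probe sets are not compared as amounts of RNA.

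Retinol travels in blood on the carrier protein that Rbp4 encodes and can enter cells through the receptor Stra6. Cells store it as retinyl esters, made by the acyltransferase Lrat, or oxidise it to retinal and on to retinoic acid, which binds nuclear receptors that pair with retinoid X receptors on DNA and switch genes on. In the lung, lipid-storing fibroblasts hold retinyl esters, and retinoic acid is known for its part in the formation of alveoli.

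A classical retinoic acid response element is a direct repeat of a core of 6 bases, with 5 bases between the copies. The promoters of Rarb and of Cyp26a1, which encodes the hydroxylase that breaks retinoic acid down, are shown because both hold such a repeat, and that of Lrat because it was the member with the largest ozone difference. They are the 250 bases before an annotated transcript start, from RefSeq (build GRCm38.p6), 5′ to 3′ on the strand of the gene, with the cores in capitals. The windows are chr14:16575477-16575726 on the minus strand for Rarb, chr19:37697558-37697807 on the plus strand for Cyp26a1 and chr3:82903975-82904224 on the minus strand for Lrat. The starts used for Rarb and Cyp26a1 are those of transcripts that begin inside the annotated span of the gene, and that of Lrat is the start of the gene.
Rarb: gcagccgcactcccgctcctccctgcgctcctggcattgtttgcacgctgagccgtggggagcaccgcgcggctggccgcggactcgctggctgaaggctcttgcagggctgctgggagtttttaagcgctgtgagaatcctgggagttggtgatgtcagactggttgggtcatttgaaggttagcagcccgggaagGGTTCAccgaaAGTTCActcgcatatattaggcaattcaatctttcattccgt
Cyp26a1: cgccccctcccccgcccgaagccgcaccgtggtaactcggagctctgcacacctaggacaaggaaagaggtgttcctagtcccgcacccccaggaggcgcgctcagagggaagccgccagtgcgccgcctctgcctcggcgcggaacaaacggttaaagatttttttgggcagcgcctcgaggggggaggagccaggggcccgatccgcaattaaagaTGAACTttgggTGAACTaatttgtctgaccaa
Lrat: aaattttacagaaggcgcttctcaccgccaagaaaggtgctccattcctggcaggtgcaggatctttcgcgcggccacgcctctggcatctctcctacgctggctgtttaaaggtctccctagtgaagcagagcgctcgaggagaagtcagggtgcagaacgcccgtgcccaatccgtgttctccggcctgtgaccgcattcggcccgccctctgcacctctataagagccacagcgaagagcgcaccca

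The search took as a core the consensus letters AGGTCA or a variant of them, namely the variant AGTTCA, the second variant GGGTCA or the further variant GGTTCA. Any pair of these in direct repeat counted, on both strands, in windows of 250 bases before to 50 after a transcript start. With a spacer of 5 bases it matched 32 of 32851 windows, or 0.0974%, which belong to 31 genes. Rarb was the one member among them, and Cyp26a1 the one other gene of the pathway list. In Rarb the repeat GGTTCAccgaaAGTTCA, at chr14:16575513-16575529, ended 37 bases before that internal transcript start. In Cyp26a1 the repeat lay on the opposite strand and reads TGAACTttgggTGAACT at chr19:37697776-37697792, ending 16 bases before its transcript start. Promoter windows were found for 8 of the 9 members, 16 windows in all, but not for Rdh10. With spacers of 2 bases (88 windows, 0.268%) and 1 base (73 windows, 0.222%) no member had a match. A match is a description of letters and not of binding.

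The arrays held lung RNA. The 14 markers of alveolar, airway and endothelial cells had a median of 13.41, and Sftpc, the surfactant protein of alveolar type 2 cells, was at or above 14.51 on all 16 arrays. Adipoq averaged 6.68 ± 0.90 in deficient mice and 8.48 ± 1.35 in wildtype mice (SD, n = 8 each, two-sided exact permutation p = 0.00420), with overlapping ranges of 6.07 to 8.82 and 7.19 to 11.52. Markers of other tissues stood out on 3 air arrays. Ucp1, the uncoupling protein of brown fat, was near 7.27 on deficient air F2 and 7.25 on wildtype air F1, and the mean of 6 skeletal muscle markers reached 9.84 on deficient air M2. For wildtype ozone F1, 1 free-text label says room air against 3 other labels that say ozone. It was counted as ozone, and on the first principal component it (24.28) lay among the ozone arrays (16.84 to 33.59) and not the air arrays (-26.50 to -21.78).

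Among the 9 members the level spanned much of the range of the array. Aldh1a1 averaged 13.66, brighter than 99.8% of all probe sets, whereas Crabp1 averaged 4.27, brighter than 4.67%. Rbp4 (9.06) and Rdh10 (9.04) followed Aldh1a1, then Aldh1a2 (8.20), Lrat (7.34), Rara (6.65), Rarb (6.39) and Stra6 (5.93). Across the 16 arrays Lrat ranged most, between 5.08 and 9.06, and Crabp1 least, between 4.18 and 4.43. The plot of the 9 genes by array shows all of these values on axes of equal span.

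**Figure D1:**
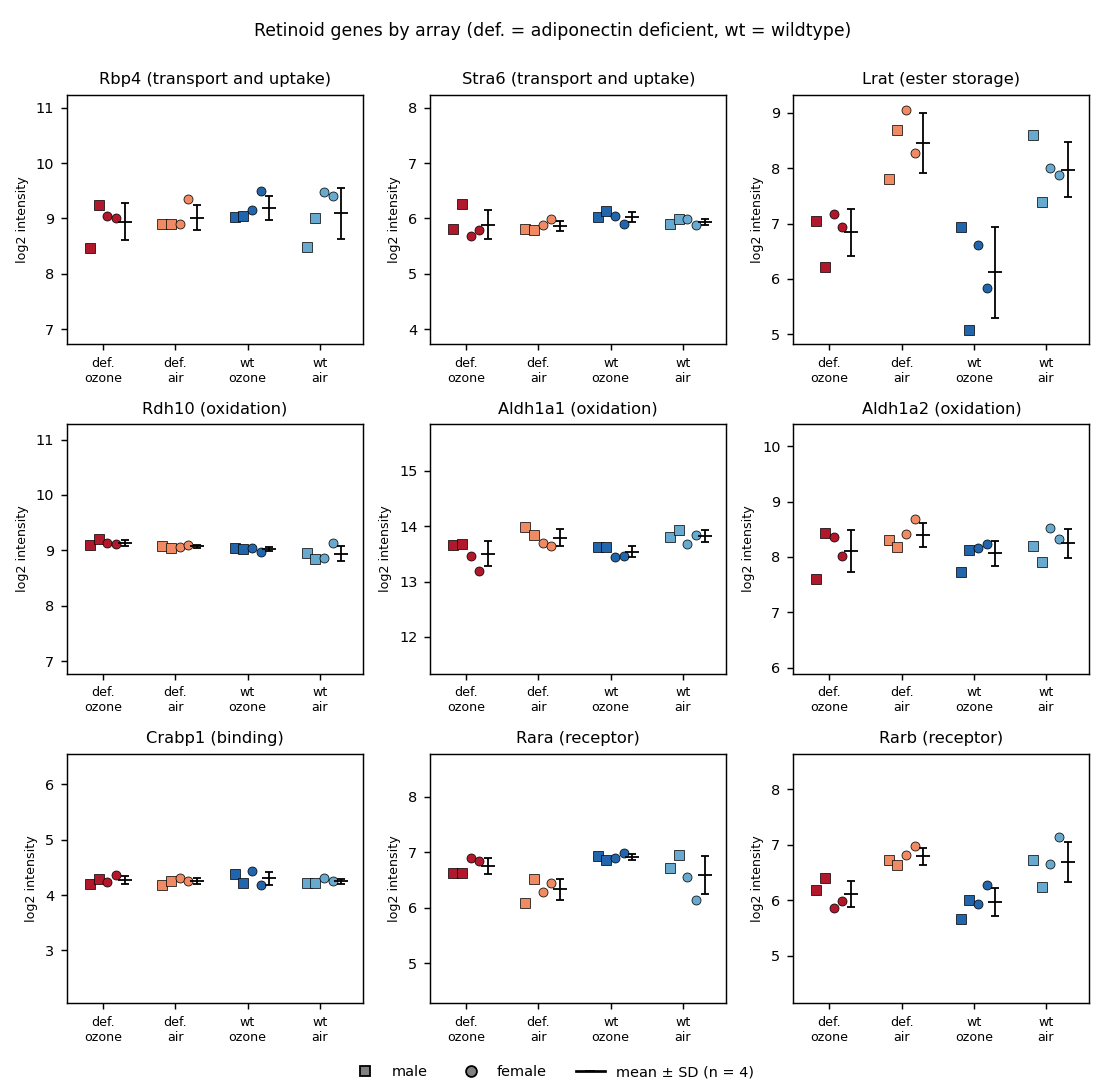
Log2 intensity (vertical axes, all of equal span) of the 9 retinoid genes on the 16 arrays, for deficient ozone, deficient air, wildtype ozone and wildtype air; squares are males, circles females, and bars give the mean ± SD of 4 arrays. Lrat and Rarb sit lower in ozone than in air in both genotypes, with 1 overlap for Rarb in wildtype mice, while Crabp1 stays between 4.18 and 4.43.

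The largest ozone differences were those of the storage enzyme Lrat and of the receptors Rarb and Rara. The ozone and air arrays did not overlap for 3 members in deficient mice and for 2 in wildtype mice, where 27.2% and 30.7% of all probe sets were so separated. The choice of members used these groups, so nothing is read from these counts. Intensities come from whole lung tissue, in which fewer cells of a type and less RNA per cell cannot be told apart.

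Lrat, the acyltransferase that esterifies retinol for storage, had the largest difference. In deficient mice it stood at 7.05, 6.22, 7.17 and 6.93 in ozone (M1, M2, F1 and F2, the order used throughout), against 7.80, 8.68, 9.06 and 8.27 in air. Wildtype mice had 6.94, 5.08, 6.61 and 5.83 in ozone, against 8.60, 7.39, 8.001 and 7.88 in air. Every ozone array lay below every air array of its genotype. The ozone minus air difference was -1.61 ± 0.37 in deficient mice (SE of the limma fit, n = 4 per group, as in all differences that follow), or 3.05-fold lower, and -1.85 ± 0.37 in wildtype mice, or 3.61-fold lower. Leaving out any 1 array gave -1.80 to -1.43 in deficient mice and -2.20 to -1.52 in wildtype mice. Wildtype ozone M2, at 5.08, held the lowest Lrat level of the 16 arrays. Without the 3 arrays that carried markers of other tissues the differences were -1.58 and -1.90.

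Most markers of lipid-storing lung fibroblasts were also lower in ozone. Of 6 measured, limma called 4 lower and 1 higher in each genotype, with medians of -0.27 in deficient mice and -0.29 in wildtype mice. Of all genes 14.5% were called lower and 15.6% higher in deficient mice, and 17.0% and 19.5% in wildtype mice. Within groups Lrat and the fibroblast list correlated at r = 0.33 over the 16 arrays. Over the marker lists the r of Lrat ran from -0.40 with airway secretory cells to 0.49 with endothelium. The mean log2 level of the list lay between 10.46 and 10.55 in deficient ozone and 10.60 and 10.72 in deficient air, and between 10.40 and 10.53 in wildtype ozone and 10.65 and 10.71 in wildtype air. Of the 6, Fgf10 went down to 4.42, the level of absent genes, and the others stayed at or above 10.46. The list's part in the Lrat difference was not tested.

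**Figure D2:**
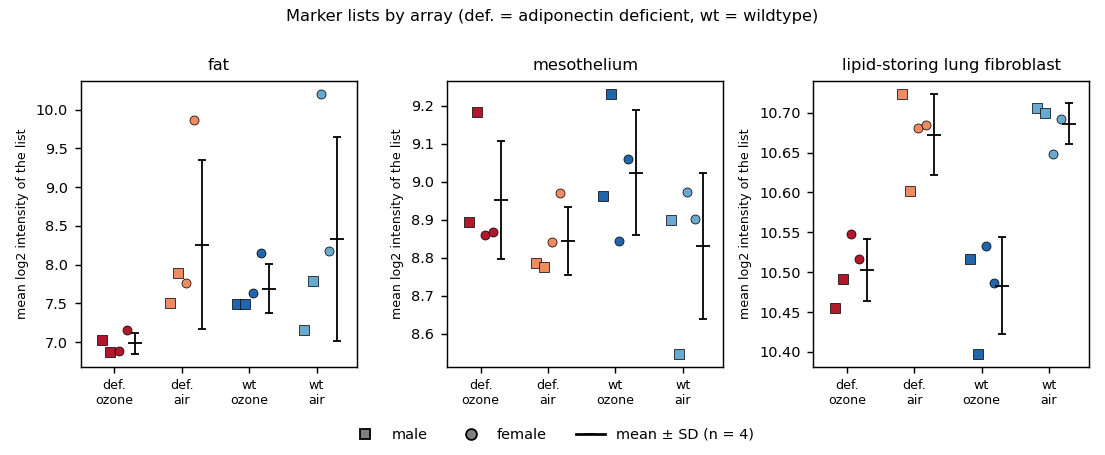
Mean log2 intensity of 6 measured fat markers, 4 mesothelium markers and 6 markers of lipid-storing lung fibroblasts (vertical axes, of different span) on the 16 arrays of the 4 groups; squares are males, circles females, and bars give the mean ± SD of 4 arrays. The fibroblast list is lower on every ozone array than on every air array, and the fat list is highest on deficient air F2 (9.87) and wildtype air F1 (10.20).

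Rarb, the receptor whose own promoter holds the repeat shown above, was the second most changed member. In deficient mice it read 6.18, 6.40, 5.86 and 5.99 in ozone, against 6.73, 6.64, 6.82 and 6.98 in air. Wildtype mice had 5.66, 6.01, 5.94 and 6.27 in ozone, against 6.73, 6.24, 6.65 and 7.13 in air. The groups did not overlap in deficient mice, and in wildtype mice air M2 lay just under ozone F2. The difference was -0.68 ± 0.16 in deficient mice (1.60-fold lower) and -0.72 ± 0.16 in wildtype mice (1.65-fold lower). It stayed between -0.81 and -0.57 and between -0.86 and -0.58 with any 1 array left out. The 4 measured markers of mesothelium, a cell layer in which retinoid genes are active, did not all move 1 way. In ozone limma called 2 higher and 2 lower in deficient mice, and 2 higher and 0 lower in wildtype mice. The shares of all genes called are those given above with the fibroblast list. The mesothelium markers had means of 8.86 to 9.18 in deficient ozone and 8.78 to 8.97 in deficient air. Wildtype means were 8.84 to 9.23 in ozone and 8.55 to 8.97 in air. Within groups Rarb and this list correlated at r = 0.69 over the 16 arrays. Over the marker lists the r of Rarb ran from -0.45 with endothelium up to that value. The part of these markers in the Rarb levels was not tested.

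Rara, the more widely expressed retinoic acid receptor, went the opposite way. In deficient mice it was 6.63, 6.62, 6.90 and 6.85 in ozone, against 6.08, 6.51, 6.29 and 6.44 in air. In wildtype mice it was 6.94, 6.86, 6.90 and 6.98 in ozone, against 6.72, 6.94, 6.55 and 6.14 in air. All deficient ozone arrays lay above all deficient air arrays, while wildtype air M2 lay within the wildtype ozone arrays. The difference was 0.42 ± 0.14 in deficient mice (1.34-fold higher) and 0.33 ± 0.14 in wildtype mice (1.26-fold higher). As each array was left out in turn, the value ran from 0.33 to 0.48 in deficient mice and from 0.17 to 0.45 in wildtype mice. The SD of Rara was smallest in wildtype ozone, at 0.051, and largest in wildtype air, at 0.34.

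Aldh1a1, which oxidises retinal to retinoic acid and is also a general aldehyde dehydrogenase, differed by less. In deficient mice it measured 13.67, 13.68, 13.46 and 13.19 in ozone, against 13.98, 13.85, 13.70 and 13.63 in air. Wildtype levels were 13.62, 13.63, 13.45 and 13.47 in ozone, against 13.81, 13.93, 13.68 and 13.85 in air. The wildtype groups were apart, and in deficient mice both male ozone arrays exceeded the F2 air array. The difference was -0.29 ± 0.071 in deficient mice and -0.28 ± 0.071 in wildtype mice, which is 1.22-fold and 1.21-fold lower.

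The other retinal dehydrogenase, Aldh1a2, and the retinol dehydrogenase Rdh10 overlapped between ozone and air. Aldh1a2 in deficient mice was 7.60, 8.43, 8.35 and 8.02 in ozone, against 8.30, 8.19, 8.42 and 8.69 in air. In wildtype mice it was 7.72, 8.13, 8.16 and 8.23 in ozone, against 8.21, 7.92, 8.53 and 8.33 in air. The differences were -0.30 ± 0.15 in deficient mice and -0.18 ± 0.15 in wildtype mice. Rdh10, which makes retinal from retinol, lay between 8.84 and 9.21 on all arrays, with ozone differences of 0.064 ± 0.064 in deficient mice and 0.084 ± 0.064 in wildtype mice.

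The transport genes and Crabp1 showed no ozone difference beyond their SE. Rbp4 in deficient mice stood at 8.46, 9.25, 9.04 and 8.999 in ozone, against 8.91, 8.90, 8.90 and 9.35 in air. Wildtype levels were 9.03, 9.04, 9.16 and 9.49 in ozone, against 8.48, 9.01, 9.48 and 9.40 in air. The differences were -0.079 ± 0.17 and 0.088 ± 0.17, and the SD within a group reached 0.46, in wildtype air. Stra6 ranged from 5.69 to 6.27, with differences of 0.019 ± 0.099 in deficient mice and 0.085 ± 0.099 in wildtype mice. Crabp1, a cytosolic carrier of retinoic acid, differed by 0.027 ± 0.062 and 0.054 ± 0.062. Its range of 4.18 to 4.43 lay inside the 3.82 to 4.46 that 3 Y-linked genes had on the female arrays, so the Crabp1 values are not distinguishable from those of genes that are absent.

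Lrat, Rarb, Rara and Aldh1a1 differed less between genotypes than between exposures, while Rdh10 differed more. Lrat was higher in deficient mice by 0.73 ± 0.37 in ozone and by 0.48 ± 0.37 in air, with overlapping groups both times. In ozone the deficient arrays M1 (7.05) and F1 (7.17) lay above all 4 wildtype arrays. Rara had deficient minus wildtype differences of -0.17 ± 0.14 in ozone and -0.26 ± 0.14 in air. Rdh10 read 9.09, 9.21, 9.13 and 9.11 in deficient ozone, against 9.05, 9.03, 9.05 and 8.98 in wildtype ozone. It was the 1 member of 9 whose genotypes did not overlap in ozone, by 0.11 ± 0.064, a separation that 5.26% of all probe sets had. In air no member was separated, against 2.66% of all probe sets. The ozone difference in deficient minus that in wildtype mice was within 1 SE of 0 for all 9 members. It was 0.24 ± 0.52 for Lrat, 0.037 ± 0.23 for Rarb, 0.093 ± 0.20 for Rara and -0.013 ± 0.10 for Aldh1a1.

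**Figure D3:**
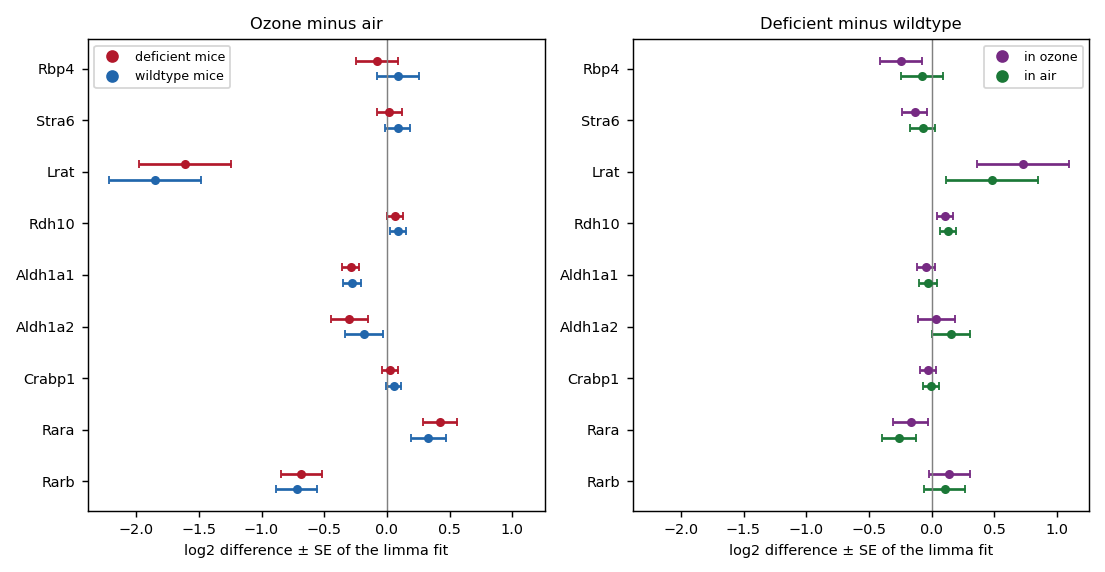
Log2 differences (horizontal axes, points with bars of 1 SE of the limma fit, 4 arrays per group) of the 9 members, for ozone minus air in deficient and wildtype mice and for deficient minus wildtype mice in ozone and in air. Lrat (-1.61 and -1.85) and Rarb (-0.68 and -0.72) lie left of 0 in both genotypes and Rara (0.42 and 0.33) right of it. In the right panel these 3 genes lie nearer to 0, with Lrat farthest out at 0.73 in ozone and 0.48 in air.

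Sex was the factor that the choice of members had not used. Aldh1a1 was higher in males, with a lowest, median and highest of 13.62, 13.75 and 13.98 in 8 males, against 13.19, 13.55 and 13.85 in 8 females. The male mean was higher in all 4 groups, by 0.34 in deficient ozone, 0.25 in deficient air, 0.17 in wildtype ozone and 0.11 in wildtype air. The male minus female difference was 0.22 ± 0.050 (limma adjusted p = 0.0159), and the ranges overlapped. It was the 1 call among 9 members. Of all probe sets 9.18% were called between the sexes, 5.41% higher in males. The call ended without the 3 arrays that carried other tissues (0.21, limma adjusted p = 0.0573) and with deficient ozone F2 left out as well (0.16, limma adjusted p = 0.0918). Deficient ozone F2 held the lowest Aldh1a1 level of the study.

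Rbp4 and Aldh1a2 had lower male means in all 4 groups but did not pass the test. Rbp4 averaged 8.88 ± 0.28 in males and 9.23 ± 0.23 in females (SD, n = 8 each), a difference of -0.34 ± 0.12 (limma adjusted p = 0.0852). Fat markers moved with it, their mean log2 level being lower in males in all 4 groups, at 6.87 to 7.90 in males and 6.88 to 10.20 in females. Within groups Rbp4 and the fat list correlated at r = 0.69 over the 16 arrays. Over the marker lists the r of Rbp4 ran from -0.55 with alveolar type 2 cells to 0.78 with airway secretory cells. The airway secretory list was also lower in males in all 4 groups. Without the 3 arrays that carried other tissues the Rbp4 difference was -0.28 (limma adjusted p = 0.241). The part of fat or of airway cells in it was not tested further. Aldh1a2 averaged 8.06 ± 0.29 in males and 8.34 ± 0.21 in females, a difference of -0.28 ± 0.11 (limma adjusted p = 0.112). Both passed when deficient ozone M2 was left out, Rbp4 at -0.43 (limma adjusted p = 0.0192) and Aldh1a2 at -0.37 (limma adjusted p = 0.0175). On that array Rbp4 was 9.25 and Aldh1a2 8.43, each the highest of the 8 males.

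In the test of whether the ozone difference depended on sex, limma called 0 of the 9 members, with 1 at an unadjusted p under 0.05. That member was Rara, with ozone differences of 0.20 in males and 0.55 in females, and a difference between the sexes of -0.35 ± 0.15 (limma adjusted p = 0.579). Rarb had ozone differences of -0.52 in males and -0.88 in females, and Lrat of -1.80 and -1.67. Over all probe sets this comparison called 0.00442%, and 1865 of 22626 had an unadjusted limma p under 0.05.

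The rest of the pathway was read through a list of 51 genes, of which 42 were measured, each by its brightest probe set. In deficient mice 4 rose and 8 fell in ozone by limma, with a median difference of -0.036, beside a median of 0.012 over all genes. In wildtype mice 6 rose and 8 fell, with a median of 0.032, the same as over all genes. Of all genes by 1 probe set each, 30.1% were called in deficient mice (15.6% higher and 14.5% lower) and 36.6% in wildtype mice (19.5% higher and 17.0% lower). Among the retinol and retinal redox enzymes, the largest group with 14 genes, 1 rose and 4 fell in deficient mice and 2 rose and 4 fell in wildtype mice. None of the 4 other receptor genes was called in either genotype.

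Cyp26a1, the hydroxylase whose promoter holds the second repeat, rose in wildtype mice. It read 6.32, 6.37, 6.06 and 5.93 in wildtype ozone, against 5.44, 5.46, 5.85 and 5.77 in wildtype air, without overlap. The difference was 0.54 ± 0.11 (limma adjusted p = 0.00149), or 1.45-fold higher. In deficient mice it read 5.79, 5.78, 5.71 and 5.94 in ozone, against 5.67, 5.60, 5.81 and 5.66 in air, a difference of 0.12 ± 0.11 (limma adjusted p = 0.442). The test of the difference between the genotypes gave -0.42 ± 0.15 (limma adjusted p = 0.974). Averaged over the genotypes, the ozone difference of Cyp26a1 was 0.52 in males (limma adjusted p = 0.000106) and 0.14 in females (limma adjusted p = 0.117). The difference between the sexes in this, 0.38, did not pass (limma adjusted p = 0.303). Rarb, with the same kind of repeat, was lower in ozone in both genotypes. Of the 31 genes with such a repeat 6 were measured, Rarb and Cyp26a1 included. By limma 1 rose and 2 fell in deficient mice, and 2 rose and 3 fell in wildtype mice. Rarb was among the falls in both genotypes, and as a member chosen with these groups known it counts only as description. Of all genes 30.1% and 36.6% were called, and nothing is read from counts over 6 genes.

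**Figure D4:**
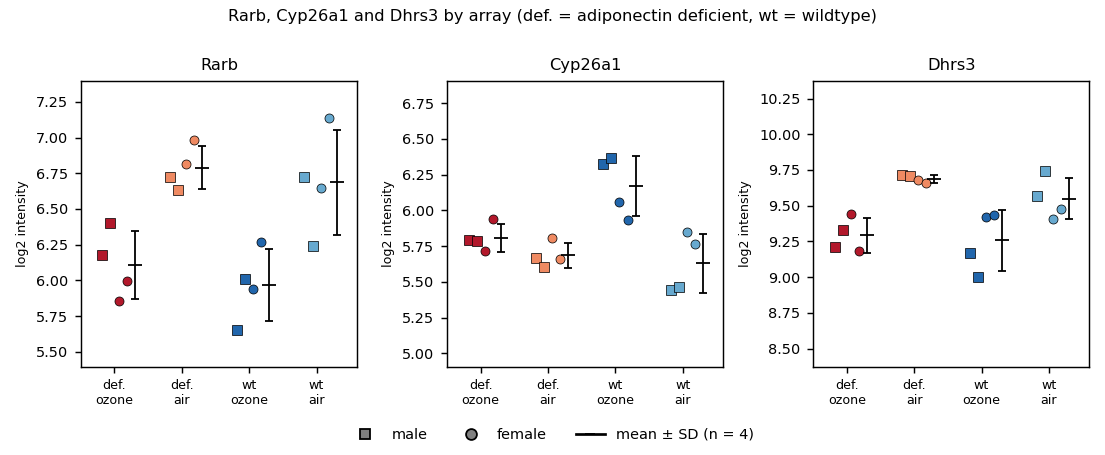
Log2 intensity (vertical axes, all of equal span) of Rarb, Cyp26a1 and Dhrs3 on the 16 arrays of the 4 groups; squares are males, circles females, and bars give the mean ± SD of 4 arrays. Cyp26a1 is higher in wildtype ozone (5.93 to 6.37) than in wildtype air (5.44 to 5.85), while Rarb is lower in ozone in both genotypes.

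Dhrs3, which reduces retinal back to retinol, read 9.21, 9.33, 9.44 and 9.18 in deficient ozone, against 9.71, 9.71, 9.68 and 9.66 in deficient air. Its difference was -0.40 ± 0.098 in deficient mice (limma adjusted p = 0.00684), where the groups did not overlap, and -0.29 ± 0.098 in wildtype mice (limma adjusted p = 0.0296). The wildtype call ended when wildtype air M1 or M2 or wildtype ozone M1 or M2 was left out, at -0.28, -0.22, -0.27 and -0.21. It also ended with arrays at a common median (limma adjusted p = 0.0540) and with only the groups compared in the fit (limma adjusted p = 0.0751). The deficient call ended without 4 arrays, at -0.35 (limma adjusted p = 0.0787). Those were the 3 arrays carrying other tissues and, in addition, deficient ozone F2.

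Rdh14 and Adh5 also fell in both genotypes, Rdh14 being a retinal reductase and Adh5 an alcohol dehydrogenase that also clears formaldehyde. Rdh14 had differences of -0.47 ± 0.11 in deficient mice (limma adjusted p = 0.00364) and -0.43 ± 0.11 in wildtype mice (limma adjusted p = 0.00569), and its second probe set was called lower too. Adh5 had -0.28 and -0.31. The Adh5 call in deficient mice ended without the same 4 arrays, at -0.26. Rdh11 fell in wildtype mice by 0.30 on the log2 scale, a call that ended without wildtype air M1 or M2 or wildtype ozone M1 and after a further quantile normalization (-0.25, limma adjusted p = 0.0546). It measured -0.23 in deficient mice, which passed without deficient ozone M1 or wildtype ozone M1. Its second probe set was not called, at -0.17 in deficient mice and -0.18 in wildtype mice.

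Dhrs4, a carbonyl reductase that acts on retinal, rose by 0.26 ± 0.062 in deficient mice (limma adjusted p = 0.00497) and 0.19 ± 0.062 in wildtype mice (limma adjusted p = 0.0259). The wildtype call of Dhrs4 ended without any 1 of the male wildtype arrays, at 0.16 to 0.17, and with only the groups compared (limma adjusted p = 0.0705). The second Dhrs4 probe set was called higher too. It differed by 0.27 in deficient mice (limma adjusted p = 0.0367) and 0.45 in wildtype mice (limma adjusted p = 0.00177). Rdh12, another retinal reductase, was called higher in wildtype mice at 0.77 ± 0.28 (limma adjusted p = 0.0451). It read 5.54, 7.39, 5.52 and 5.63 in wildtype ozone, against 5.44, 5.23, 5.19 and 5.14 in wildtype air, and without ozone M2 the difference was 0.33 (limma adjusted p = 0.0236). The Rdh12 call ended without 10 of the 16 arrays in turn, and also with a further quantile normalization, with the intensity trend and robust prior, with no sex term and with only the groups compared. Its second probe set was not called (0.70, limma adjusted p = 0.198), and Rdh12 differed by 0.0029 in deficient mice.

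Adh7, an alcohol dehydrogenase of surface epithelia that oxidises retinol, and Crabp2, a carrier of retinoic acid to its receptors, were brightest on deficient air M2. Adh7 was 9.41 there and at most 8.19 on the other deficient air arrays. Its difference in deficient mice was -0.80 ± 0.24 (limma adjusted p = 0.0209), but -0.47 without deficient air M2, where it passed, -0.64 without deficient ozone M1 (limma adjusted p = 0.0732) and -0.38 without the 3 arrays that carried other tissues (limma adjusted p = 0.145). With only the groups compared the call ended as well (limma adjusted p = 0.0697). The second Adh7 probe set was called lower in deficient mice, at -1.29 (limma adjusted p = 0.00425). In wildtype mice it differed by -0.76 (limma adjusted p = 0.0585), against -0.13 for the brightest. Its dependence on deficient air M2 was not examined. Crabp2 was 7.34 on deficient air M2 and at most 4.67 on the other 15 arrays. Its difference of -0.68 ± 0.45 in deficient mice did not pass (limma adjusted p = 0.286). That array also had the highest squamous marker mean, 10.53.

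Carotenoid uptake and cleavage were represented by Bco1, which cleaves beta-carotene to retinal, by Bco2, and by Scarb1, a lipoprotein receptor that takes up carotenoids. Bco2 was not called in either genotype. Its means were 5.05 in deficient ozone, 5.12 in deficient air, 5.09 in wildtype ozone and 5.09 in wildtype air. Bco1 was dim, between 4.82 and 5.57 on the 16 arrays. Bco1 was called higher in both genotypes, at 0.25 ± 0.082 in deficient mice (limma adjusted p = 0.0315) and 0.26 ± 0.082 in wildtype mice (limma adjusted p = 0.0204). The deficient call ended without deficient air M2 or F2 or deficient ozone M2, F1 or F2, and with only the groups compared (limma adjusted p = 0.0713), and the value was 0.15 without the 3 arrays that carried other tissues. The wildtype call ended without any 1 of the 4 male wildtype arrays. Scarb1 rose in deficient mice by 0.49 ± 0.11 (limma adjusted p = 0.00347) and measured 0.26 ± 0.11 in wildtype mice (limma adjusted p = 0.0795). It passed there without wildtype air F1 (0.32) or wildtype ozone F2 (0.35), with arrays at a common median (0.30) and without the 3 arrays that carried other tissues (0.34). Its other 2 probe sets were not called, at 0.14 and 0.20 in deficient mice. Aldh8a1, studied as a retinal dehydrogenase, was called higher in wildtype mice at 0.31 ± 0.097 (limma adjusted p = 0.0207). That call ended without wildtype air M2, wildtype ozone M1 or wildtype ozone F1, and its second probe set differed by 0.052.

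The cofactors and target genes held the falls of smallest p. Nrip1, a corepressor of nuclear receptors that retinoic acid induces, read 7.86, 7.92, 7.98 and 7.87 in deficient ozone, against 8.58, 8.44, 8.59 and 8.47 in deficient air. In wildtype mice it read 7.82, 7.66, 7.84 and 7.80 in ozone, against 8.56, 8.502, 8.60 and 8.45 in air. The differences were -0.61 ± 0.059 in deficient mice (limma adjusted p = 4.21e-06) and -0.75 ± 0.059 in wildtype mice (limma adjusted p = 8.46e-07), with no overlap. Ncoa1, a coactivator of nuclear receptors, fell as well, by 0.31 and 0.28 on the log2 scale, and was named after its values were seen. Of the 4 cofactors measured, limma called 2 lower and 0 higher in each genotype. Ncoa3, another of them, went the other way without a call. It averaged 6.82 in deficient ozone against 6.59 in deficient air, and 6.82 in wildtype ozone against 6.58 in wildtype air.

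Meis2 and Meis1 encode homeodomain proteins whose genes respond to retinoic acid. Meis2 fell by 0.72 on the log2 scale in deficient mice (limma adjusted p = 0.000111) and by 0.97 in wildtype mice (limma adjusted p = 9.54e-06). Meis1 read 8.05, 7.998, 8.28 and 8.27 in deficient ozone, against 8.49, 8.37, 8.64 and 8.44 in deficient air, a difference of -0.34 ± 0.060 (limma adjusted p = 0.000742). In wildtype mice Meis1 fell by 0.61 on the log2 scale (limma adjusted p = 6.28e-06). It was also the 1 gene of the 42 called between the sexes, at -0.24 ± 0.043 male minus female (limma adjusted p = 0.00483), against 7.17% of all genes. Tgm2, a transglutaminase induced by retinoic acid, rose by 0.34 ± 0.072 in deficient mice (limma adjusted p = 0.00218) and 0.20 ± 0.072 in wildtype mice (limma adjusted p = 0.0369). Of its 5 other probe sets 1 was called higher in each genotype, and the other 4 differed by -0.11 to 0.076. The wildtype call of Tgm2 ended without wildtype air M2 or F2 or wildtype ozone M1, F1 or F2, and after a further quantile normalization (0.17, limma adjusted p = 0.0962).

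**Figure D5:**
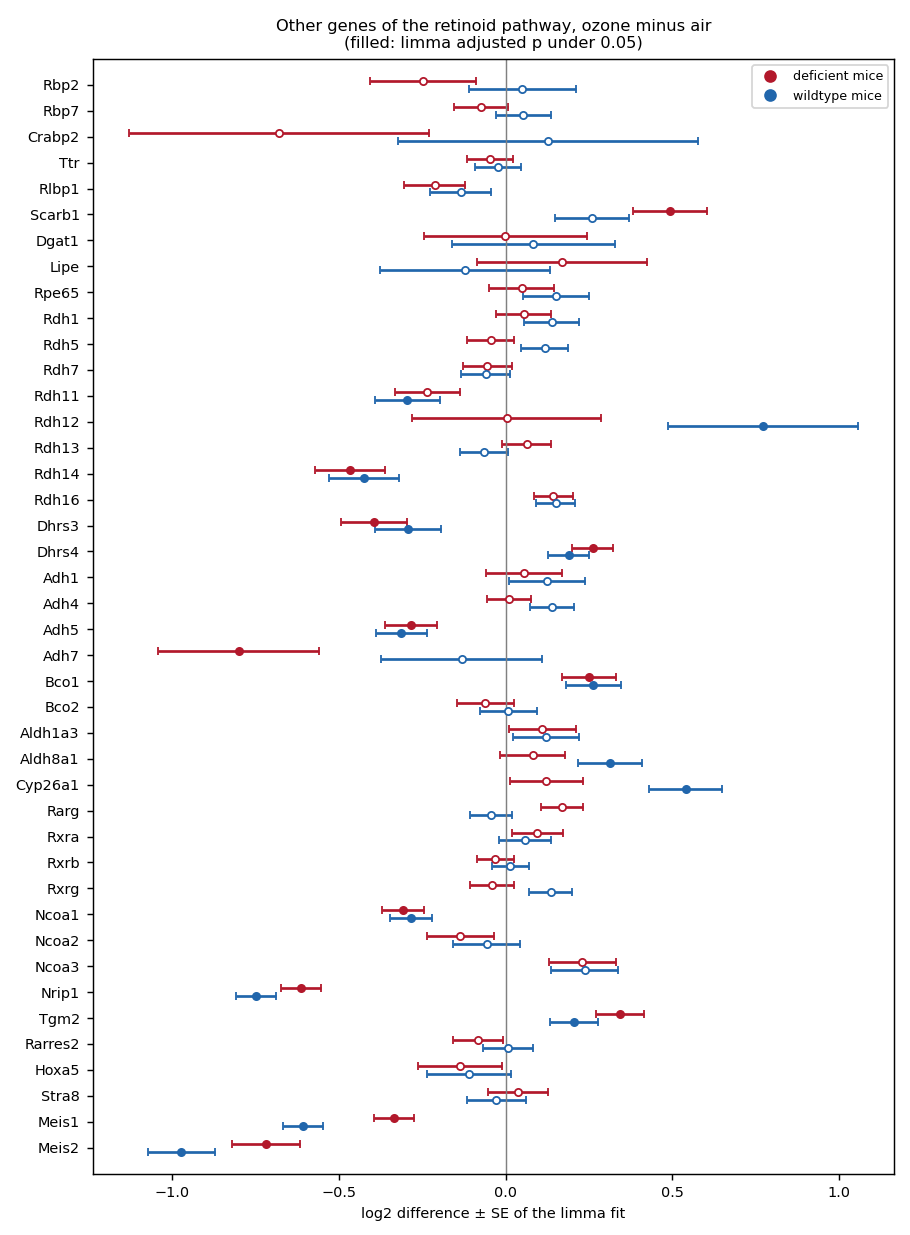
Ozone minus air log2 differences (horizontal axis, points with bars of 1 SE of the limma fit) of the 42 measured other genes of the pathway in deficient and wildtype mice; filled points passed a limma adjusted p under 0.05. Meis2, Nrip1 and Meis1 lie left of 0 in both genotypes, and Cyp26a1 is at 0.12 in deficient mice and at 0.54 in wildtype mice.

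Between genotypes limma called 0 of the 42 genes in ozone, with 5 at an unadjusted p under 0.05, and 0 in air, with 2. Of all genes 0.0161% and 0.00807% were called, and 1392 and 732 of 12393 had an unadjusted limma p under 0.05. Limma also called 0 of the 42 in the test of whether the ozone difference depended on genotype, with 3 at an unadjusted p under 0.05. In that test 0.00% of all genes were called, and 603 of 12393 had an unadjusted limma p under 0.05. Of the genes given whatever their values, Rarg, the third retinoic acid receptor, differed in ozone by 0.17 in deficient mice (limma adjusted p = 0.0555) and -0.045 in wildtype mice (limma adjusted p = 0.613). Rarg passed in deficient mice without wildtype air M1 (limma adjusted p = 0.0419) or wildtype ozone M2 (limma adjusted p = 0.0456), with arrays at a common median (limma adjusted p = 0.0466) and with array weights (limma adjusted p = 0.0372). The second Rarg probe set was not called. It differed by 0.055 in deficient mice (limma adjusted p = 0.624) and -0.20 in wildtype mice (limma adjusted p = 0.0517). Rxra, a retinoid X receptor that pairs with the retinoic acid receptors, differed by 0.095 in deficient mice and 0.058 in wildtype mice. Rxra passed in deficient mice without deficient air M2, at 0.19 (limma adjusted p = 0.0294). Cyp26b1 was not analysed here.

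Within the groups the members' levels varied from mouse to mouse, and the genes most like each were ranked by the correlation of deviations from the group mean over 16 arrays, among 7013 genes. For Lrat they were Oaz2 (r = 0.86), Mapk8 (0.85) and Rgl3 (0.84). For Rarb they were Mitf (0.86), Nudcd2 (0.85) and Glrx2 (0.84). For Aldh1a1 they were Ak3 (0.94), Bambi (0.91) and Cdc42bpa (0.91). For Rara they were Ubn1 (0.85), Csk (0.85) and Hnrnpl (0.85). The nearest genes of the others were Adamts5 for Rbp4 (0.90), Psmd12 for Rdh10 (0.87), Qrsl1 for Aldh1a2 (0.85), Wdr36 for Stra6 (0.82) and Sf3b3 for Crabp1 (0.82). The 3 correlations of each member were taken again without the 2 arrays farthest from their group mean for that member. They were then 0.80 to 0.86 for Lrat, 0.81 to 0.91 for Rarb, 0.85 to 0.90 for Aldh1a1 and 0.71 to 0.79 for Rara. For Rbp4 they were 0.70 to 0.83, for Rdh10 0.69 to 0.73 and for Aldh1a2 0.65 to 0.78. Crabp1 had 0.74 to 0.89 and Stra6 0.22 to 0.63. Each is the highest among 7013 correlations over arrays that share tissue composition and normalization, and is a description only.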

How the data were processed

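Total RNA of left lungs was hybridised to Affymetrix arrays, per the labels. The authors deposited 1 linear intensity per probe set and array, by RMA (background correction, normalization between arrays and summary of probes) per the submitters' processing notes. The sources used here name no software for it. The deposited intensities ran from 11.1 to 26974.7 and their log2 was taken. Array medians lay between 7.19 and 7.26, so a shift common to all genes cannot be seen, and precision is limited by the number of arrays. Of 22690 probe sets, 64 controls were left out. GEO's platform annotation, which can be old, gave 1 symbol to 20380 of the others, several to 691 and none to 1555.

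All 22626 probe sets and 16 arrays were fitted by lmFit and eBayes of limma 3.58.1 (R 4.3.3), with the 4 groups and sex as terms. The ozone by sex comparison was fitted with groups of genotype, exposure and sex, and averaged over the genotypes. A call is a Benjamini-Hochberg adjusted p under 0.05 over all probe sets. Genes with several probe sets, 4956 of 12393, were read by the brightest. The p-values measure the spread between mice. The fit was tested on simulated data. The members and lists were chosen with earlier results of these data known. The named pathway genes were the called ones, at most the 6 largest rises and falls per comparison, and Cyp26a1, Cyp26b1, Dhrs3, Crabp2, Rarg and Rxra whatever their values. Of 51 listed genes, 9 were not analysed here. Alternatives were other scalings, priors, filters and terms, each array left out, and fits without arrays that carried other tissues. The figures were drawn with matplotlib 3.10.9.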

Additional observations from a re-analysis of the deposited data

Results flagged for a closer look

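Rbp4 on deficient air F2 was 9.35, far from the 8.90 to 8.91 of the other 3 arrays of its group. It was the 1 array to stand apart among 36 sets of 4 arrays compared for the 9 members. Chance alone would make about 1 set in 20 hold such an array, so 1 in 36 is not more than chance would give. Rbp4 is also made by fat cells, and on the same array the fat markers had a mean of 9.87 and Adipoq was 8.82. Their part in the Rbp4 level was not tested.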

How the results depend on the processing

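The direction of the ozone differences of Lrat, Rarb, Aldh1a1 and Rara was the same under all 27 alternatives in both genotypes. The count of called pathway genes was 14 in wildtype mice and 7 to 15 with 1 array left out. It was 9 without wildtype air M1, 7 without wildtype air M2 and 9 without wildtype ozone M1. In deficient mice it was 12, and 11 to 13. The count of members called between the sexes was 1, and 1 to 3 with 1 array left out, but 0 without the 3 arrays that carried other tissues and 0 with deficient ozone F2 left out too, alternatives chosen after seeing the data. The 3 genotype counts and the ozone by sex count were 0 under all alternatives run. The deviations of 24 same-numbered pairs correlated at -0.038 to 0.41, with a median of 0.22 against -0.13 for other pairs, and 21 of the 24 were over 0.1. Because not every pair was, the numbers were not taken as pairing, and 7 of 16 arrays were most like an array of their own number. With the replicate number as a block, 13 pathway genes were called in wildtype mice and 12 in deficient mice, and of the named genes Tgm2 in wildtype mice lost its call. Dim probe sets such as Crabp1 have no measured background, and 4 arrays per group limit all differences.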
